A study of Homo sapiens with 6 samples.

Results

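The netrins and their receptors were examined in HT29 cells with and without knockdown of aldolase A. The 8 genes were the receptors UNC5A, UNC5B, UNC5C, UNC5D, DCC and NEO1 and the ligands NTN1 and NTN4, taken by gene symbol from 28278 listed genes. Of these 8, 5 had enough counts for edgeR's filter and belonged to the 15307 tested genes. The family was selected on the contrast of siALDOA with siControl itself, since the low fold change of UNC5B in these libraries was known. The values of the 8 genes in that contrast are therefore a description without a test, and no evidence is drawn from them.

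Netrins are secreted proteins related to laminins that guide growing axons, and they also act on epithelia, blood vessels and tumors. DCC and neogenin, encoded by NEO1, are receptors that mediate attraction, while the UNC5 receptors mediate repulsion, alone or together with DCC. DCC and the UNC5 proteins are also called dependence receptors, because without a bound netrin they can be cleaved by caspases and trigger cell death. DCC was named for its frequent loss in colorectal cancer, and netrin-1 is made in the crypts of the intestinal epithelium.

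HT29 is an established human colorectal adenocarcinoma line that grows as epithelial cells. The cells received siRNA against ALDOA, a glycolytic enzyme, or a scrambled siRNA, named siALDOA and siControl, and RNA was collected at 48 h. RNA-Seq was done on 3 libraries of each group, which the labels call biological replicates. The tests set group differences against the spread between these replicates, as estimated in a fit over all genes. The comparison asks which transcripts differ when ALDOA is depleted, and it covers 1 cell line. Counts on genes came to 28166497, 28690395 and 27277538 in siALDOA replicates 1, 2 and 3 and to 33237914, 31973122 and 31899091 in siControl replicates 1, 2 and 3. Counts were scaled by TMM normalization and are given as CPM, the counts divided by the scaled library size in units of 1e6.

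ALDOA, the target, was at 283, 305 and 280 CPM in siALDOA replicates 1, 2 and 3 and at 592, 637 and 667 CPM in siControl replicates 1, 2 and 3. The siALDOA values all lay below the siControl values. The log2 fold change, siALDOA against siControl, was -1.13 (SE 0.06, adjusted p = 6.95e-11 in edgeR's quasi-likelihood test with Benjamini-Hochberg adjustment). Epithelial keratins marked the cells: KRT8 averaged 5340 CPM and KRT18 2110 CPM over the 6 libraries. Of 11 markers of colorectal epithelium, 10 were tested, and LGALS4 had 0 counts in every library. Of the 10 tested, 8 had negative log2 fold changes, and the median was -0.12, against 0.00 over all tested genes. KRT18 was called lower, with a log2 fold change of -0.28 (SE 0.07, adjusted p = 0.0152), and KRT19, named after its values were seen, was called higher, at 0.38 (SE 0.06, adjusted p = 5.77e-04). Among all tested genes, 5.29% were called lower and 4.35% higher. The adjusted p of KRT18 in edgeR's test was 0.0750 and 0.0704 without siALDOA replicate 2 or 3, 0.0702 and 0.0512 without siControl replicate 2 or 3, and 0.242 with library totals in place of TMM. CEACAM5, a cell adhesion protein also named after its values were seen, was not called, at -0.46 (SE 0.14, adjusted p = 0.0516 in edgeR's test). Its adjusted p was 0.0192 without siALDOA replicate 3, and over the 17 alternatives it ran from 0.0124 with no filter on low counts to 0.222 without siALDOA replicate 2, with 7 below 0.05. The siALDOA values lay below the siControl values for 5 of the 10 markers, KRT8, KRT18, CDH1, VIL1 and CEACAM5, and above them for KRT19, where 27.7% of all tested genes had groups that did not overlap in either direction. The summed level of the 11 markers was 9480, 9650 and 9810 CPM in siALDOA replicates 1, 2 and 3 and 10000, 10300 and 10600 CPM in siControl replicates 1, 2 and 3. With library totals the summed levels overlapped, at 9370, 10100 and 10200 CPM under siALDOA and 9420, 9850 and 11000 CPM under siControl, and 7 of the 10 log2 fold changes were negative, with a median of -0.05. The part of these markers in the values of the 8 genes was not tested.

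Among the ligands, netrin-4, a basement membrane protein encoded by NTN4 (ENSG00000074527, chromosome 12 of hg38, 95657807 to 95791189), was the more abundant. NTN4 was at 18.2, 15.2 and 17.0 CPM in siALDOA replicates 1, 2 and 3 and at 20.1, 16.3 and 16.6 CPM in siControl replicates 1, 2 and 3, from 458 to 627 counts per library. The highest value was in siControl replicate 1, and the groups overlapped. The means were 16.8 ± 1.48 CPM under siALDOA and 17.7 ± 2.11 CPM under siControl (SD, n = 3 each). The log2 fold change of NTN4 was -0.07 (SE 0.11), with an approximate 95% interval from -0.30 to 0.15. Its sign rests on the libraries and the scaling, since the value was 0.03 without siControl replicate 1 and 0.00 with library totals in place of TMM. PGAM1P5, a pseudogene on the opposite strand inside NTN4, shares 0 exon bases with it and had at most 9 counts in a library.

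Netrin-1, the ligand through which DCC and UNC5 receptors were mostly studied, is encoded by NTN1 (ENSG00000065320, chromosome 17, 9021510 to 9244000). NTN1 had 4, 11 and 12 counts in siALDOA replicates 1, 2 and 3 and 8, 5 and 15 counts in siControl replicates 1, 2 and 3. The counts added up to 27 and 28, and the groups overlapped. The log2 fold change of 0.08 (SE 0.59) had an approximate 95% interval from -1.15 to 1.31, a wide range at these low counts. Its value was -0.05 and -0.19 without siALDOA replicate 2 or 3, 0.00 and -0.19 without siControl replicate 1 or 2, and 0.56 without siControl replicate 3.

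UNC5B (ENSG00000107731, chromosome 10, 71212570 to 71302864, 17 exons) encodes a netrin receptor best known from blood vessels and from p53-dependent cell death. UNC5B had 45, 74 and 83 counts in siALDOA replicates 1, 2 and 3 and 151, 168 and 194 counts in siControl replicates 1, 2 and 3. In CPM these were 1.62, 2.46 and 2.92 with siALDOA and 4.84, 5.50 and 5.89 with siControl. All 3 siALDOA libraries were below all siControl libraries, and siALDOA replicate 1 was the lowest. The mean was 2.33 ± 0.661 CPM under siALDOA and 5.41 ± 0.529 CPM under siControl (SD, n = 3 each). The fitted log2 fold change was -1.21 (SE 0.21), with an approximate 95% interval from -1.66 to -0.76, or a siControl level 2.31 times the siALDOA level. In bulk RNA, fewer cells with the transcript and less of it per cell cannot be told apart.

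UNC5B was the 1 member called lower of 5 tested and the 1 member whose groups did not overlap, and nothing is read from these counts because the contrast chose the family. Among all 15307 tested genes, 5.29% were called lower and 4.35% higher, and in 27.7% the groups did not overlap in either direction. These shares correspond to 810 lower and 666 higher genes, against 279 lower and 895 higher genes with library totals in place of TMM. Of all tested genes, 67 had a log2 fold change below -1.

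Ribosomal RNA genes took 13.1%, 7.71% and 8.11% of the counts in siALDOA replicates 1, 2 and 3 and 17.4%, 15.3% and 8.15% in siControl replicates 1, 2 and 3. With those genes left out, the log2 fold change of UNC5B was -1.21. With single libraries left out, it lay between -1.40 without siALDOA replicate 3 and -1.01 without siALDOA replicate 1.

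**Figure D1:**
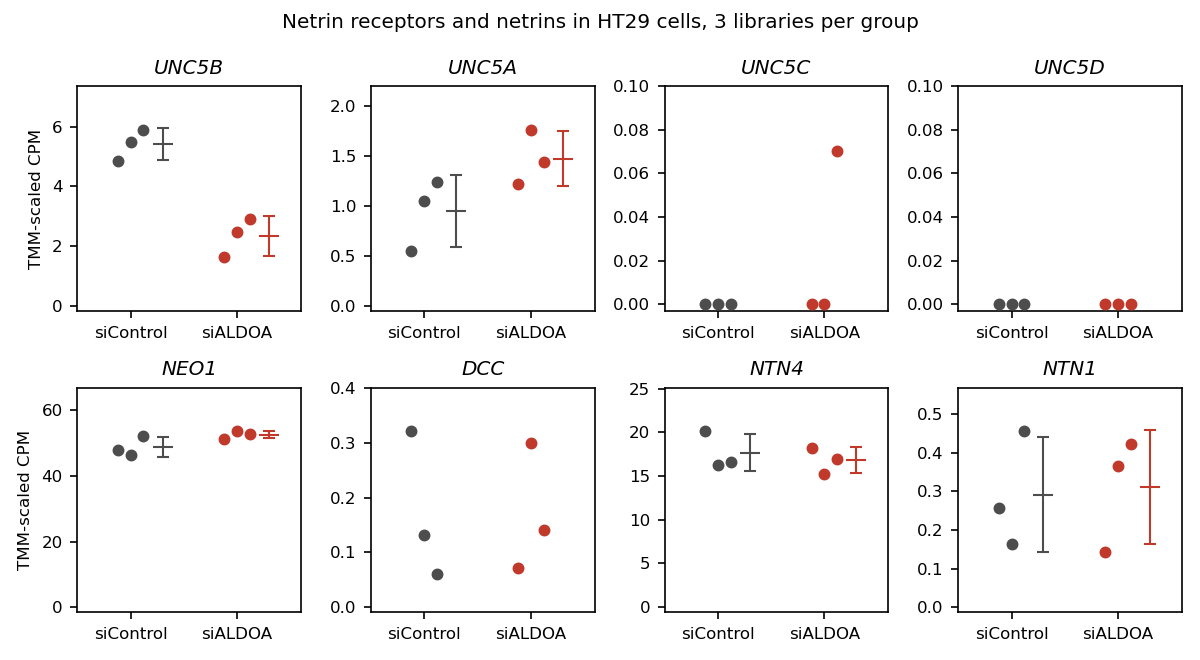
Level of each of the 8 genes in every library, in TMM-scaled CPM, with siControl in grey and siALDOA in red. Each point is 1 library, the bars of the 5 tested genes show the mean and SD (n = 3), and each panel has its own axis. UNC5B lies between 1.62 and 2.92 CPM with siALDOA and between 4.84 and 5.89 CPM with siControl, while the groups of the other 4 tested genes overlap.

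UNC5A (ENSG00000113763, chromosome 5, 176810519 to 176880898), a relative of UNC5B with the same death domain, had 34, 53 and 41 counts in siALDOA replicates 1, 2 and 3. In siControl replicates 1, 2 and 3 it had 17, 32 and 41 counts. The groups overlapped, at 1.22, 1.76 and 1.44 CPM with siALDOA and 0.545, 1.05 and 1.24 CPM with siControl. The lowest value by far was in siControl replicate 1. The log2 fold change of UNC5A was 0.64 (SE 0.36), with an approximate 95% interval from -0.12 to 1.39. It fell to 0.36 without siControl replicate 1, and its direction was the same in all 17 alternatives. UNC5A shares 30 exon bases with HK3 on the opposite strand, and HK3 had at most 8 counts in a library.

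UNC5C (ENSG00000182168, chromosome 4) and UNC5D (ENSG00000156687, chromosome 8), the remaining UNC5 receptors, were nearly or wholly undetected. UNC5C had 2 counts in siALDOA replicate 3 and 0 in the other 5 libraries. UNC5D had 0 counts in all 6 libraries, which allows a level of up to 0.0910 to 0.108 CPM (3 counts in a library). Such limits cover counting error only.

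DCC (ENSG00000187323, chromosome 18, 52340197 to 53535899) was also near the limit of detection, with 2, 9 and 4 counts in siALDOA replicates 1, 2 and 3. In siControl replicates 1, 2 and 3 it had 10, 4 and 2 counts. The sums of 15 and 16 counts were alike, the groups overlapped, and DCC was not tested. Part of these counts is uncertain, since LINC01917, with 0 to 4 counts, shares 190 exon bases with DCC on the opposite strand. MIR4528, a miRNA gene inside DCC, had 0 counts in every library.

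NEO1 (ENSG00000067141, chromosome 15, 73051710 to 73305205), which binds netrins and the repulsive guidance molecules, was the most abundant member. NEO1 was at 51.4, 53.6 and 52.8 CPM in siALDOA replicates 1, 2 and 3 and at 48.0, 46.5 and 52.3 CPM in siControl replicates 1, 2 and 3. It rested on 1420 to 1723 counts per library, the deepest coverage of the family, and the groups overlapped through siControl replicate 3. Its log2 fold change was 0.10 (SE 0.07), with an approximate 95% interval from -0.04 to 0.25.

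Levels of different genes were compared per kilobase of exon. NEO1 averaged 6.24 CPM per kilobase (range 5.72 to 6.59 over 6 libraries) and NTN4 3.95 (3.49 to 4.60), without overlap. UNC5B averaged 0.566 CPM per kilobase (0.236 to 0.860), below every value of NTN4, and UNC5A 0.280 (0.126 to 0.408). The order of UNC5B and UNC5A was clear in siControl libraries, where UNC5B was at 0.708 to 0.860 and UNC5A at 0.126 to 0.288 CPM per kilobase. In siALDOA libraries their ranges overlapped, at 0.236 to 0.427 for UNC5B and 0.283 to 0.408 for UNC5A. NTN1 followed at 0.0469 CPM per kilobase (0.0224 to 0.0709) and DCC at 0.0130 (0.00463 to 0.0245), with ranges that overlapped each other. The last places were taken by UNC5C at 0.00110 and UNC5D at 0.

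**Figure D2:**
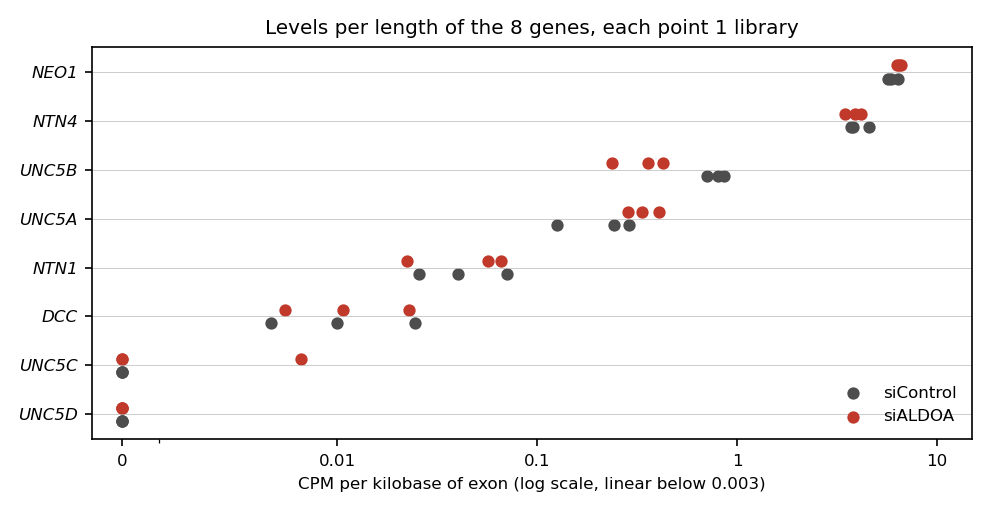
Levels of the 8 genes in CPM per kilobase of exon, on a logarithmic axis that is linear below 0.003. Each point is 1 library, siControl in grey and siALDOA in red. UNC5B and UNC5A occupy the same range with siALDOA, at 0.236 to 0.427 and 0.283 to 0.408, and separate ranges with siControl.

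As a description of the same counts that chose the family, UNC5B took 57.0%, 58.3% and 66.9% of the summed UNC5A and UNC5B counts in siALDOA replicates 1, 2 and 3. Its share was 89.9%, 84.0% and 82.6% in siControl replicates 1, 2 and 3. Among the 6 receptors, UNC5B made up 3.45%, 4.88% and 5.87% of the summed CPM per kilobase in siALDOA replicates 1, 2 and 3 and 10.5%, 11.9% and 11.4% in siControl replicates 1, 2 and 3. NEO1 exceeded UNC5B per kilobase by a factor of 15.2 to 26.7 with siALDOA and of 7.11 to 8.33 with siControl.

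**Figure D3:**
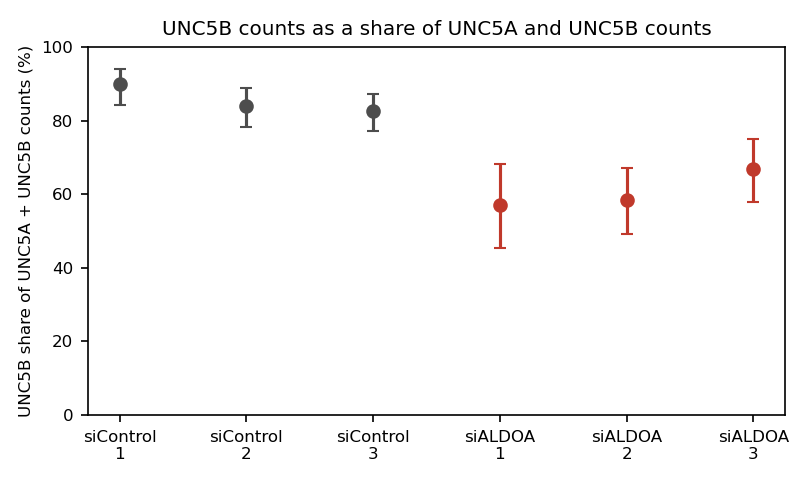
UNC5B counts as a percentage of UNC5A and UNC5B counts in each library, with exact binomial (Clopper-Pearson) 95% intervals as bars, which cover counting error only and not the spread between replicates. The siControl libraries, in grey, lie between 82.6% and 89.9%, and the siALDOA libraries, in red, between 57.0% and 66.9%.

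The genes whose log2 CPM was most like that of UNC5B over the 6 libraries were SPTBN1 and SLC35C1 (both Pearson r = 0.998), TIMP2 (r = 0.997), FLNA and SLC6A9 (both r = 0.996), out of 13723 genes compared. SPTBN1 and FLNA encode spectrin and filamin, which bind actin, and TIMP2 encodes an inhibitor of metalloproteinases. All points come from the same 6 libraries and 2 groups, and 281 genes had an r above 0.95 with UNC5B. FLNA, for example, averaged 258 CPM with siALDOA and 362 CPM with siControl. For UNC5A the most alike genes were XPO7, MORN2, MOK, MRPL24 and PTK6, with r from 0.982 to 0.990. NEO1 was most like SLC19A1, ARHGEF18, NENF, ARHGEF10L and CDC42BPG (r from 0.988 to 0.994), and NTN4 most like PPP6R3, NR0B2, MLLT10, LRP6 and FAM160A1 (r from 0.977 to 0.989).

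**Figure D4:**
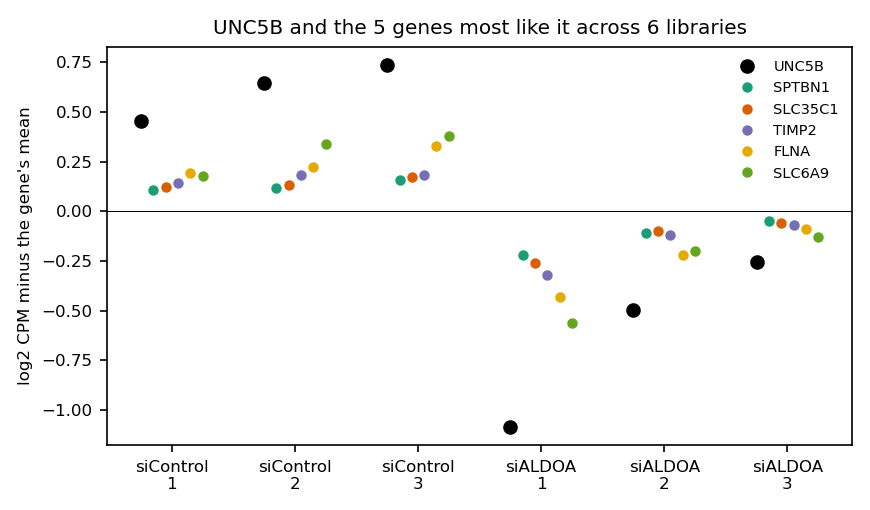
Log2 CPM of UNC5B (black) and of the 5 genes most like it, each minus its own mean over the 6 libraries. Each point is 1 gene in 1 library. All 6 genes are above their mean in the siControl libraries and below it in the siALDOA libraries, and all are lowest in siALDOA replicate 1.

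UNC5B lies within 500 kilobases of 11 other listed genes, a window chosen after the data were seen. Of the 5 tested, VSIR, an immune checkpoint receptor, was called higher, with a log2 fold change of 0.27 (SE 0.08, adjusted p = 0.0419 in edgeR's test). Of all tested genes, 4.35% were called higher and 5.29% lower. VSIR was called in 12 of 17 alternatives, and its adjusted p reached 0.228 without siControl replicate 3. The 5 log2 fold changes ran from -0.32 for SLC29A3 (SE 0.13) to 0.36 for CDH23 (SE 0.45). The value of CDH23 was 0.09 without siALDOA replicate 1, 0.18 and 0.20 without siControl replicates 2 and 3, 0.63 without siALDOA replicate 3 and 0.75 without siControl replicate 1. SLC29A3 was called lower only without siALDOA replicate 3 (adjusted p = 0.0325 in edgeR's test). UNC5B-AS1, an antisense transcript inside UNC5B that shares 0 exon bases with it, had 2, 0 and 1 counts in siALDOA replicates 1, 2 and 3 and 2, 0 and 6 in siControl replicates 1, 2 and 3.

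Since UNC5B is prominent in blood vessels, 9 endothelial markers were read beside it. KDR had 0 counts in every library, CDH5, VWF, TIE1 and ERG had at most 3 counts in any library, and CLDN5 had at most 6. PECAM1 had 18, 36 and 12 counts in siALDOA replicates 1, 2 and 3 and 59, 42 and 69 in siControl replicates 1, 2 and 3. It was called lower, with a log2 fold change of -1.23 (SE 0.38, adjusted p = 0.0429 in edgeR's test). It was the 1 marker called of 3 tested, whose median log2 fold change was 0.17. Among all tested genes, 5.29% were called lower and 4.35% higher, and in 27.7% the groups did not overlap in either direction. When single libraries were left out, PECAM1 was called only without siALDOA replicate 2, and its adjusted p ran from 0.0595 without siControl replicate 2 to 0.178 without siControl replicate 3 in the others. With library totals its adjusted p was 0.0523 in edgeR's test. The other 2 tested had positive log2 fold changes and were not called. ESAM, the most abundant marker at 47.3 CPM, was at 0.17 (SE 0.07, adjusted p = 0.119 in edgeR's test), and its groups did not overlap. TEK, with 2 to 19 counts a library, was at 0.58 (SE 0.58, adjusted p = 0.602 in edgeR's test), and this ran from 0.07 without siControl replicate 3 to 0.99 without siControl replicate 1. The summed level of the 9 markers was 50.0, 52.0 and 52.9 CPM in siALDOA replicates 1, 2 and 3 and 47.1, 48.2 and 45.1 CPM in siControl replicates 1, 2 and 3. The part of these markers in the values of UNC5B was not tested. Markers of other cell types were low beside the keratins, the most abundant being GFAP (5.10 CPM) and MAP2 (1.65 CPM) for neurons and glia, COL1A1 (2.15 CPM) and LUM (1.58 CPM) for fibroblasts, and CD68 (13.9 CPM) for blood cells. GFAP was at 5.24, 5.55 and 6.72 CPM in siALDOA replicates 1, 2 and 3. In siControl replicates 1, 2 and 3 it was at 3.69, 4.65 and 4.76 CPM, without overlap. The groups of MAP2, COL1A1, LUM and CD68 overlapped. The median log2 fold change was 0.33 for 3 tested markers of neurons and glia and 0.28 for 3 of fibroblasts and pericytes. Of these, 0 were called by edgeR's quasi-likelihood test, limma-voom or DESeq2. Their part in the values of UNC5B was not tested.

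The pathway lists were chosen with earlier results of these data known, so no evidence is drawn from their counts of calls. Around the 8 members, 117 genes of 8 such lists were followed, of which 88 were tested. Of these, 10 were called lower and 2 higher, with a median log2 fold change of -0.05, beside 0.00 for all tested genes, of which 5.29% were called lower and 4.35% higher. With library totals in place of TMM, 5 were called lower and 5 higher. Among 13 other netrins and ligands of these receptors, 5 were tested and 0 called by edgeR's quasi-likelihood test, limma-voom or DESeq2. Of these 5, 1 had an unadjusted p below 0.05 in edgeR's test. The most abundant was RGMB, a ligand of neogenin, with a log2 fold change of -0.02 (SE 0.07), which was 0.05 with library totals. With single libraries left out, the value of RGMB ran from -0.06 without siControl replicate 2 to 0.00 without siControl replicate 1.

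Among 9 further netrin-binding receptors and adhesion partners, 7 were tested and 2 were called lower, where 5.29% of all tested genes were. MCAM, a cell adhesion molecule that binds netrin-1, was at 12.5 ± 1.18 CPM under siALDOA and 15.9 ± 0.485 CPM under siControl (SD, n = 3 each). Its log2 fold change was -0.35 (SE 0.11, adjusted p = 0.0428 in edgeR's test), with all 3 siALDOA libraries below the siControl libraries. When single libraries were left out, MCAM was called only without siALDOA replicate 3, and the others gave an adjusted p from 0.0915 without siControl replicate 3 to 0.116 without siALDOA replicate 1, siALDOA replicate 2 or siControl replicate 2. ITGA3, an integrin subunit, had a log2 fold change of -0.24 (SE 0.06, adjusted p = 0.0148 in edgeR's test), and without siControl replicate 3 the adjusted p was 0.0930. With library totals neither was called, at adjusted p = 0.178 for MCAM and 0.264 for ITGA3 in edgeR's test.

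Of 14 genes listed for the death signalling of UNC5 and DCC, 13 were tested. Where 5.29% of all tested genes were called lower, 1 of these 13 was. This was APPL1, an endosomal adaptor that binds DCC, at 30.3 ± 2.48 CPM under siALDOA and 39.9 ± 1.16 CPM under siControl (SD, n = 3 each). The log2 fold change was -0.40 (SE 0.08, adjusted p = 0.00204 in edgeR's test), and it was called in all 17 alternatives. The median of the 13 tested genes was -0.08.

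The list for guidance signalling to the cytoskeleton held 5 genes called lower of 17 tested and 19 listed. The median log2 fold change of the tested genes was -0.09. Nothing is read from this count, since the list was chosen with earlier results known. Whether signals from these receptors act on these genes was not tested. Of all tested genes, 5.29% were called lower. PTK2, focal adhesion kinase, which binds DCC, was at 247 ± 8.22 CPM under siALDOA and 340 ± 12.4 CPM under siControl (SD, n = 3 each), which gave a log2 fold change of -0.46 (SE 0.06, adjusted p = 9.56e-06 in edgeR's test). ENAH, which promotes actin filament growth, was at 70.0 ± 3.25 CPM under siALDOA and 101 ± 2.64 CPM under siControl (SD, n = 3 each), which gave a log2 fold change of -0.53 (SE 0.06, adjusted p = 6.25e-06 in edgeR's test). For both, every siALDOA library was below every siControl library, and both were called in all 17 alternatives. VASP, of the same family as ENAH, had a log2 fold change of -0.25 (SE 0.06, adjusted p = 0.00591 in edgeR's test). The kinase PAK1 was at -0.25 (SE 0.06, adjusted p = 0.00756) and the phosphatase PTPN11, a binding partner of UNC5 receptors, at -0.24 (SE 0.06, adjusted p = 0.00758) in the same test.

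With library totals, 2 genes of this cytoskeletal list were called lower in place of 5, and edgeR's adjusted p was 0.208 for VASP, 0.192 for PAK1 and 0.214 for PTPN11. VASP was also not called without siControl replicate 3 (adjusted p = 0.0591 in edgeR's test). PTPN11 was not called without siALDOA replicate 3 (adjusted p = 0.0514) or without siControl replicate 2 (adjusted p = 0.0511) in edgeR's test.

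All 10 genes for the cleavage and turnover of DCC and neogenin were tested, and 0 were called by edgeR's quasi-likelihood test, limma-voom or DESeq2, with 2 at an unadjusted p below 0.05. ADAM10, the most abundant of them, sheds the outer part of such receptors and had a log2 fold change of 0.02 (SE 0.06), which was -0.01 without siALDOA replicate 1 and -0.01 without siControl replicate 3. Of 15 other dependence receptors, 9 were tested and 1 was called lower, where 5.29% of all tested genes were. KREMEN1, a receptor of DKK1, was at 28.9 ± 1.14 CPM under siALDOA and 38.3 ± 2.45 CPM under siControl (SD, n = 3 each), which gave a log2 fold change of -0.41 (SE 0.08, adjusted p = 0.00152 in edgeR's test), called in all 17 alternatives.

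**Figure D5:**
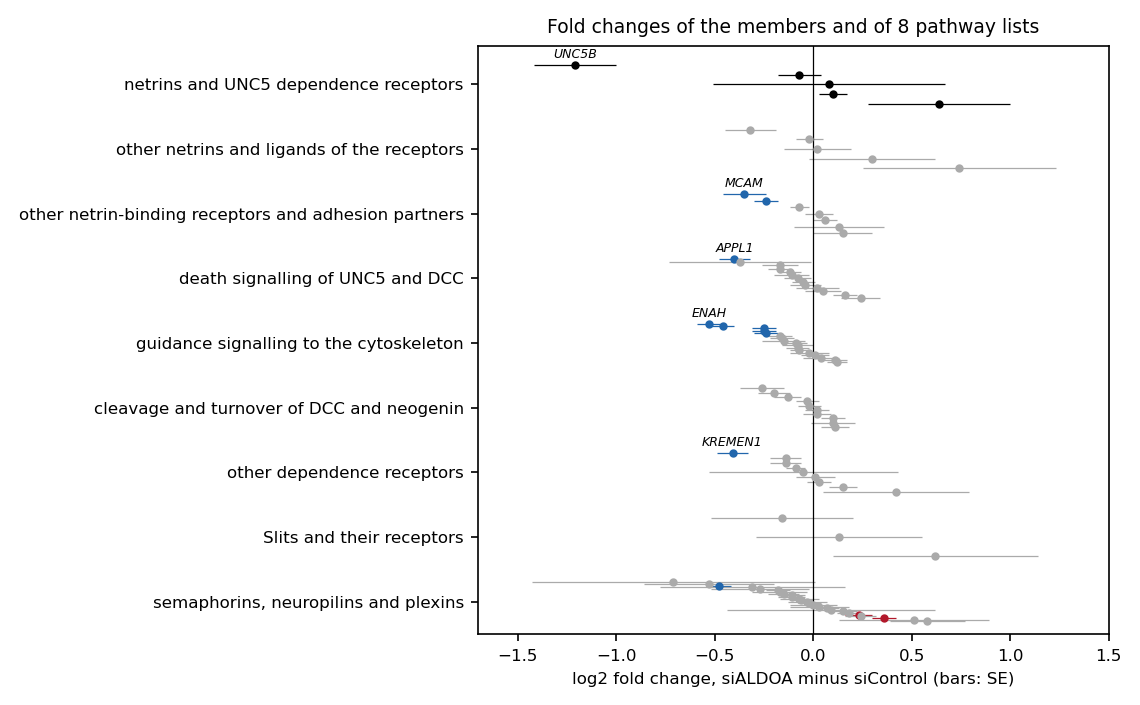
Log2 fold change, siALDOA minus siControl, of the 5 tested members (black) and of the tested genes of the 8 pathway lists, with the SE as bars. Blue points were called lower, red points higher and grey points neither, in edgeR's test across all genes. UNC5B lies at -1.21, and ENAH, at -0.53, is the lowest called gene of the pathway lists.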

How the data were processed

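RNA-Seq of 6 HT29 libraries was analysed, 3 with siALDOA and 3 with siControl, grouped by their sample titles. Reads were mapped by the authors with tophat2 on hg38, and the deposited counts per gene symbol, made with gfold, carry no normalization. Annotation, strandedness and the treatment of multiply mapped reads are not given in the sources used here.

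Counts were fitted for all genes in R 4.3.3 with edgeR 4.0.16 (filterByExpr, TMM, glmQLFit and glmQLFTest), with library sizes over all listed genes, and p-values were adjusted over 15307 tested genes. Called means an adjusted p < 0.05. The SE was taken as the size of the log2 fold change over the root of F, and the 95% intervals made from it are approximate. Log2 CPM used a prior count of 2. Gene positions and exon lengths came from GENCODE 44. Figures were drawn with matplotlib 3.10.9. The method was tested on simulated data. Replicate libraries of a group differed by more than sampling noise (chi-square per degree of freedom from 5.05 to 90.8). These values cover all tested genes, ribosomal RNA genes among them. The highest was for siControl replicates 1 and 3, with 17.4% and 8.15% of counts on ribosomal RNA genes. The lowest was for siALDOA replicates 2 and 3, with 7.71% and 8.11%. The part of ribosomal RNA in these values was not tested.

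The members and lists were chosen with earlier results of these data known. Named genes were ALDOA, the 8 members, overlapping genes, called pathway genes (up to 5 per direction in a list, otherwise the most abundant), the 5 genes most like each member with at least 1 CPM, and the 2 most abundant markers of each cell type, of which 1 is not reported here. Alternatives were limma-voom (limma 3.58.1), DESeq2 1.42.0, edgeR's likelihood ratio test, RLE factors, library totals, upper quartile scaling, omission of the low-count filter, a filter of 10 counts in each library, a replicate block, omission of ribosomal RNA genes and omission of each library. Levels per length were also computed with the longest transcript. Library sizes over tested genes only were added after the data were seen.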

Additional observations from a re-analysis of the deposited data

How the results depend on the processing

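Under 17 alternatives, 1 of them (library sizes over tested genes only) chosen after the data were seen, the log2 fold change of UNC5B ran from -1.40 to -1.01, that of UNC5A from 0.36 to 0.89 and that of NEO1 from 0.07 to 0.18. NTN4 reversed to 0.00 with library totals and ran from -0.13 to 0.03 when each library was left out. NTN1 ran from -0.19 to 0.56 when each library was left out, and was -0.05, -0.19, 0.00 and -0.19 where it reversed. DESeq2 gave NTN1 no adjusted p, and the filter of 10 counts in every library removed it. The causes were not tested.

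The 810 genes called lower became 279 with library totals, which moved the median log2 fold change of all genes to 0.08, and 471 to 790 with each library left out. The 666 called higher became 359 to 644 with each library left out, and 668 with library sizes over tested genes only. The 2 pathway genes called higher became 1 with limma-voom, 6 with DESeq2, 5 with the likelihood ratio test, 5 with library totals, and 1 to 4 with each library left out. The 10 called lower became 5 with library totals. The causes were not tested. With the longest transcript as length, NEO1 moved to 6.91 and NTN4 to 4.76 CPM per kilobase, from the shorter length itself. The alternatives were also run for 25 genes outside the family whose log2 fold changes are given. Of the 17 called, 8 were called in every alternative. RGMB reversed to 0.05 with library totals, and with each library left out ADAM10 ran from -0.01 to 0.06 and ROBO3 from -0.59 to 0.08, and the causes were not tested. DESeq2 gave CDH23 and TEK no adjusted p, and TEK was not among the genes with at least 10 counts in every library.

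Libraries with the same replicate number deviated from their group means with r = 0.03, 0.03 and 0.03, each best with its own number, a hint from the data and not from the design, and too weak to treat the numbers as pairs. With a replicate block, UNC5B was at -1.23, 987 genes were called higher and 1175 lower, and 5 pathway genes were called higher. NTN1, DCC, UNC5C and UNC5D were each under 20 counts in every library, which limits what their values can show. Whether depth or absent expression set these counts was not tested.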

Other observations

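Other guidance families were detected beside the netrins. Of 7 genes for Slits, secreted guidance proteins, and ROBO receptors, 3 were tested and 0 called by edgeR's quasi-likelihood test, limma-voom or DESeq2, with 0 at an unadjusted p below 0.05. ROBO3 was the most abundant, at 1.24 CPM, with a log2 fold change of -0.16 (SE 0.36), which was 0.08 without siALDOA replicate 3 and 0.01 without siControl replicate 3. Of 31 semaphorins, neuropilins and plexins, 25 were tested, 2 called higher and 1 lower, where 4.35% of all tested genes were called higher and 5.29% lower. The log2 fold changes of the 25 tested genes had a median of -0.03. The count of calls in either direction, 3 here, was 2 with limma-voom, 7 with DESeq2 and 6 with edgeR's likelihood ratio test, and library totals gave 5 higher and 1 lower. SEMA3B, a secreted semaphorin, was at 63.7 ± 2.12 CPM under siALDOA and 89.1 ± 4.86 CPM under siControl (SD, n = 3 each), which gave a log2 fold change of -0.48 (SE 0.06, adjusted p = 3.15e-05 in edgeR's test). PLXNA1, a plexin receptor, was at 282 ± 26.7 CPM under siALDOA and 220 ± 6.27 CPM under siControl (SD, n = 3 each), which gave a log2 fold change of 0.36 (SE 0.06, adjusted p = 9.18e-04 in edgeR's test). Both were called in all 17 alternatives, and for both the groups did not overlap.

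SEMA4D, a membrane semaphorin that binds plexin-B1, had a log2 fold change of 0.23 (SE 0.07, adjusted p = 0.0466 in edgeR's test). With limma-voom its adjusted p was 0.0523. When single libraries were left out, SEMA4D was called only without siControl replicate 3, and the others gave an adjusted p from 0.0536 without siALDOA replicate 1 to 0.175 without siControl replicate 1 in edgeR's test.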
